A study of Homo sapiens with 36 samples.

Results

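The genes described here are 37 human genes of cholesterol synthesis, uptake and export, with the fatty acid genes that share their main regulators. They were taken from the deposited count table, which lists 74628 Ensembl gene identifiers, by matching each symbol to its identifier. All 37 were found, and all 37 passed the filter on low counts. By role, the list holds 5 genes of sterol sensing, 7 of the mevalonate pathway, 11 that turn farnesyl diphosphate into cholesterol by way of squalene, 6 of fatty acid synthesis and desaturation, 3 of intracellular cholesterol transport, and 5 around the LXR receptors. No receptor that takes up lipoproteins is among them, so uptake is represented by MYLIP alone, a ubiquitin ligase that directs such receptors to degradation. The cells were Jurkat, an established human T-lymphocyte leukaemia line, and every group carried dCas9-VP64, a nuclease-dead Cas9 fused to a transcriptional activator, and the mCherry marker. Lentiviral pXPR vectors added either sgRELA, a guide meant to activate RELA, which encodes a subunit of NF-kB, or sgControl, a non-targeting guide. All cells passed through puromycin selection for 3 days, and RNA was taken on day 5, 6 or 7 after transduction, with 3 biological replicates for each guide and day. The labels describe 1 guide against RELA and 1 control guide, no untransduced cells were analysed here, and the labels do not say whether the harvests of different days came from the same transduced cultures.

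Cells hold their cholesterol level by feedback. When sterols are scarce, SCAP carries the SREBP transcription factors, products of SREBF1 and SREBF2, from the endoplasmic reticulum to the Golgi, where proteases release their active part. That fragment enters the nucleus and switches on genes of sterol and fatty acid synthesis, INSIG1 among them. When sterols are plentiful, the INSIG proteins hold SCAP back, and oxysterols activate the LXR receptors, which raise the exporters ABCA1 and ABCG1 and the ligase MYLIP. Lymphocytes that grow and divide are known to draw on this synthesis for membrane.

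Promoter sequence was available for 32 of the 37 genes in RefSeq (GRCh38.p14), as windows of 300 bases that run from 250 bases before a transcription start to 50 after it. ACAT2, ABCG1, SQLE, FDFT1 and FASN had no entry. The sequences of 5 genes are shown because these genes rose together from day 6 to day 7 in both guides, as described further on, except SREBF2, which is shown as the gene of their regulator. Each runs 5′ to 3′ on the gene's strand and stops before the outermost start that GENCODE v29 gives, so that no transcribed base is included. Capitals mark the letters CCAAT or their reverse complement ATTGG, the box that NF-Y binds beside SREBP in many sterol genes, and in SREBF2 also the SRE core TCACNCCAC, to which SREBP binds. SREBF2 lies at chr22:41832855-41833078 on the plus strand, INSIG1 at chr7:155297628-155297775 (plus), HMGCS1 at chr5:43313513-43313662 (minus), MSMO1 at chr4:165327419-165327622 (plus) and SCD at chr10:100346983-100347123 (plus).
SREBF2: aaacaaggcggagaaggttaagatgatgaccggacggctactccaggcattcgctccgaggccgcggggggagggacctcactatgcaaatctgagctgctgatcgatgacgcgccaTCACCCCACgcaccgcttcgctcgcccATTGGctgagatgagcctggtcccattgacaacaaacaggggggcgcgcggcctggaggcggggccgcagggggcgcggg
INSIG1: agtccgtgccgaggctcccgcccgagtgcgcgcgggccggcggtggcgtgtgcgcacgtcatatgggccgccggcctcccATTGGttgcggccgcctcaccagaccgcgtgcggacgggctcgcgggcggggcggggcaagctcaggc
HMGCS1: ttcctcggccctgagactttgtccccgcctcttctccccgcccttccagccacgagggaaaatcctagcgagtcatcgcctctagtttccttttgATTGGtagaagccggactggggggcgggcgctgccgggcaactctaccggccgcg
MSMO1: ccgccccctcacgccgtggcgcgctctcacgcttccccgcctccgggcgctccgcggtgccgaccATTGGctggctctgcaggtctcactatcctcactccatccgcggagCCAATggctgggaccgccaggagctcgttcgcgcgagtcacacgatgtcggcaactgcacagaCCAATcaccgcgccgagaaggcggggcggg
SCD: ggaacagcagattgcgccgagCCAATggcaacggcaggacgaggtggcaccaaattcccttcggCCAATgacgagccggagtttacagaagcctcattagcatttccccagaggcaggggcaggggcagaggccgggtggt
In SREBF2 the SRE core spanned positions -133 to -125 from the RefSeq start and an ATTGG followed at -106 to -102. INSIG1 held an ATTGG at -170 to -166. HMGCS1 held an ATTGG at -155 to -151 and another at -100 to -96, past the end of the stretch shown. Searched on both strands over the whole windows, CCAAT occurred in 23 of 32 member genes (71.9%) and in 39.7% of all genes with a window. The SRE core occurred in 1 of 32 (3.12%) and in 1.39% of all genes. GGGCGG, the box of Sp1, occurred in 96.9% of member genes and 48.3% of all genes. The letters of an LXR element, AGGTCA repeated after 4 bases of any kind, occurred in 0 of 32 member genes and in 0.0256% of all genes. A form of the NF-kB site, GGG and TTTCC with 2 bases of any kind between them, occurred in 1 of 32, TM7SF2, and in 2.33% of all genes. In the member windows 1 pair of matches of different motifs overlapped, the NF-kB form and GGGCGG in TM7SF2. A match is a stretch of letters, not a bound site. Only the letters given were searched, so a window without a match may still hold another form of the element.

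Each RNA sample was the sum of 2 libraries and held 18769530 to 29503934 counts. RELA lay between 20.2 and 39.3 CPM (counts relative to the library total after TMM scaling) in the 9 sgControl samples. In the 9 sgRELA samples it lay between 119.8 and 318.5 CPM and fell with day. There it was 263 to 318 CPM on day 5, 187 to 223 on day 6 and 120 to 136 on day 7. The guide comparisons of single days and the sums over days below span these RELA levels. All 12 T-lymphocyte markers were present at 23.3 CPM or more in every sample. Their summed level moved with day. In sgControl it was 3215 to 3457 CPM on day 5, 3494 to 3707 on day 6 and 3958 to 4076 on day 7. In sgRELA it was 3386 to 3545, 3906 to 4132 and 4221 to 4254 CPM. The sgRELA sums lay above those of sgControl without overlap on day 6 and on day 7. Of the B-cell markers, MS4A1 and PAX5 stayed at or under 1.14 CPM, while CD79A put the summed list at 16.7 to 26.2 CPM in sgControl and 48.4 to 62.8 CPM in sgRELA. The 4 myeloid markers summed to at most 3.99 CPM and the 4 epithelial markers to at most 1.68 CPM, with EPCAM at 0 counts throughout. Library features moved with day as well: the TMM factor was 0.986 to 1.00 on day 5, 1.02 to 1.08 on day 6 and 0.971 to 0.976 on day 7, and the mitochondrial share of counts was 7.43 to 9.28%, 8.33 to 9.87% and 7.41 to 7.85%. The part of these features in the day differences below was not tested. Whether RNA of one day was processed together is not given, so harvest day and any batch of that day cannot be told apart.

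ACAT2, HMGCS1, FDFT1, SQLE and MSMO1, enzymes of sterol synthesis, fell from day 5 to day 6 and rose from day 6 to day 7 under both guides. In each guide, the calls of the fall of ACAT2, SQLE and MSMO1 were lost in at least 1 fit that left out a replicate. Those of HMGCS1 and FDFT1 held in all such fits. FASN, ACACA and INSIG1 rose from day 6 to day 7 without a call between days 5 and 6, and NPC2, STARD4 and MYLIP fell from day 5 to day 7. The calls of STARD4 in sgControl and of MYLIP in both guides were lost in at least 1 fit that left out a replicate. Between the guides, 1 of 37 members was called, ABCA1, with counts added over days, against 0.363% of 28888 genes tested. It was called on no single day. The call was lost in most fits that left out 1 sum and with either library of each RNA sample alone. Among the 6 groups, 24 of 37 members (64.9%) differed at a Benjamini-Hochberg adjusted p under 0.05 in edgeR's quasi-likelihood test, against 24.1% of all 27553 genes tested. A gene is called below where it passed that threshold, adjusted over all genes tested. A fold change is given on the log2 scale, and a value after ± is its standard error unless marked as SD. In bulk RNA, a change in every cell and a change in the share of cells cannot be told apart.

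**Figure D1:**
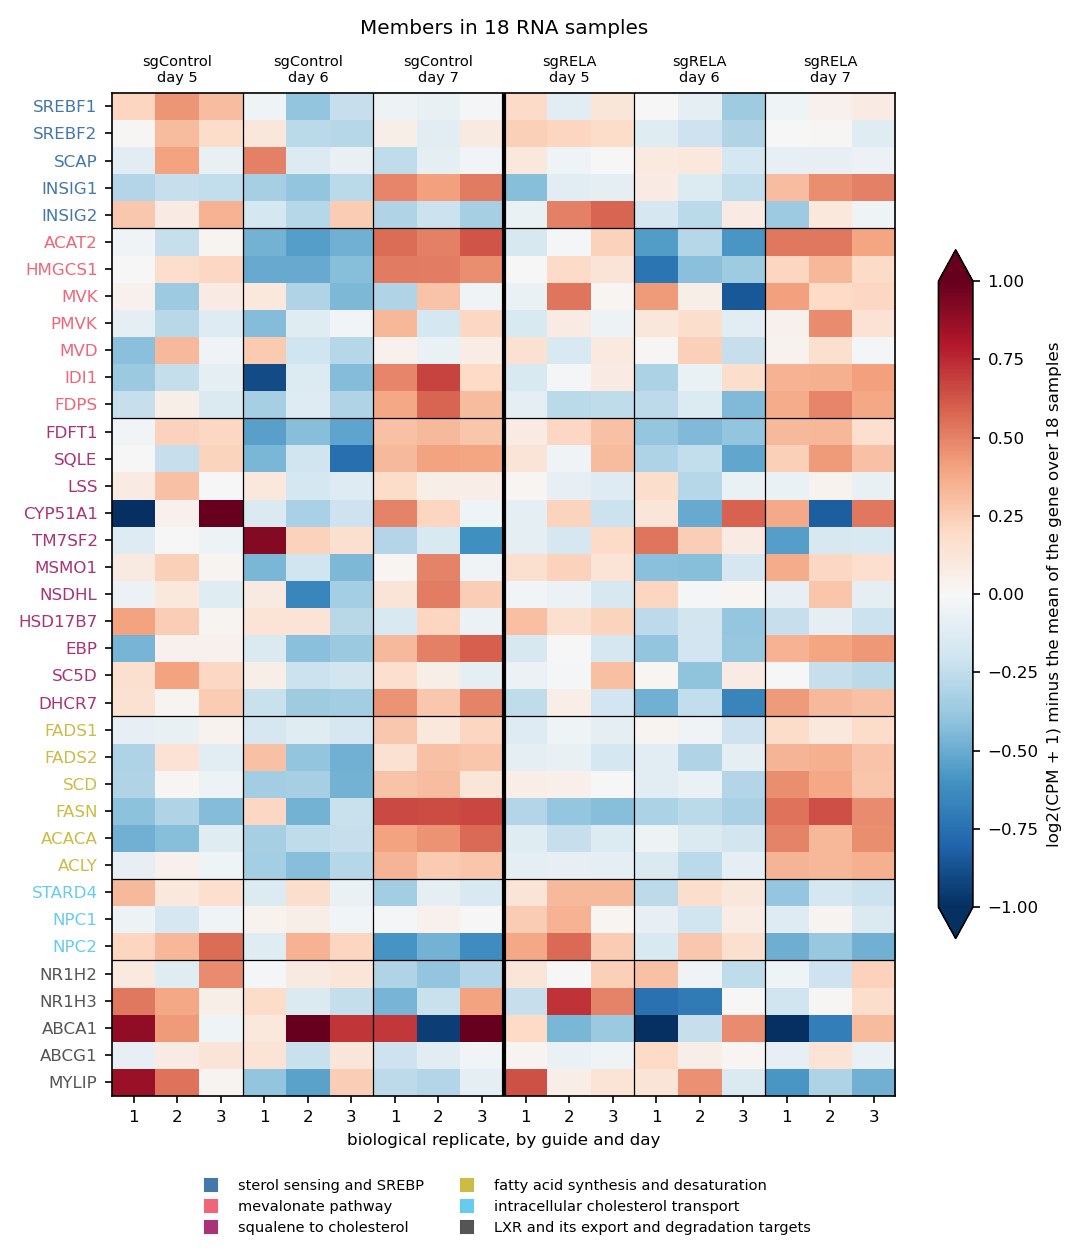
Each row is 1 of the 37 genes, grouped by role, and each column 1 of the 18 RNA samples. Colour gives log2(CPM + 1) minus the gene's mean over the 18 samples, with blue below and red above the mean and values past 1 shown at the end of the scale. The day 7 columns of both guides are red for most mevalonate, squalene and fatty acid genes, and the day 6 columns are blue for ACAT2, HMGCS1, FDFT1 and SQLE.

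Between day 6 and day 7, 16 members rose and 2 fell in sgControl, and 14 rose and 1 fell in sgRELA. That is 48.6% of members in sgControl, where 14.6% of all genes tested were called (8.25% higher, 6.31% lower), and 40.5% in sgRELA, where 12.2% were called (7.21% higher, 5.02% lower). The guides' libraries are separate samples, and 14 members rose in both: INSIG1, ACAT2, HMGCS1, FDPS, FDFT1, SQLE, MSMO1, EBP, DHCR7, FADS2, SCD, FASN, ACACA and ACLY. NPC2 fell in both. The share of all genes tested that changed alike under both guides was 8.73%. The median log2 fold change over the 37 members was 0.35 in sgControl and 0.18 in sgRELA, where the median of all genes tested was -0.07 and -0.06. Of the 14 genes that rose in both guides, 12 stayed called in both whichever replicate was left out. The exceptions were FADS2, with a largest adjusted p of 0.239 without sgControl day 6 replicate 3 and 0.0662 without sgRELA day 6 replicate 2, and MSMO1, with 0.104 without sgControl day 7 replicate 2. NPC2 was not called in sgRELA without day 6 replicate 2 (adjusted p = 0.146). With 1 library of each RNA sample in place of the sum, ACAT2, HMGCS1, FDFT1, SCD and ACACA stayed called as higher in both guides from either library set, and the other 9 lost a call in one set or the other. NPC2 in sgRELA was -0.26 with the first libraries (adjusted p = 0.804).

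Between day 5 and day 6, 11 members were called in sgControl, all of them lower, 29.7% of members where 8.87% of all genes tested were called (3.29% higher, 5.58% lower). In sgRELA 7 were called, all lower, 18.9% where 6.91% were called (2.57% higher, 4.34% lower). SREBF2, ACAT2, HMGCS1, FDFT1, SQLE and MSMO1 fell in both guides, 6 of 37 (16.2%) against 4.3% of all genes tested. SREBF1, DHCR7, SCD, ACLY and MYLIP were called lower in sgControl alone and HSD17B7 in sgRELA alone, and the interaction of guide and day was not called for any of them. The median over members was -0.22 in sgControl and -0.14 in sgRELA, and over all genes 0.04 and 0.03. This count rested on few replicates. In sgControl it was 7 without day 5 replicate 1 or 2 and 6 without day 5 replicate 3 or day 6 replicate 3, and in sgRELA it was 3 without day 6 replicate 3. FDFT1 and HMGCS1 were the members called in both guides whichever replicate was left out.

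Day 7 set against day 5 shares its samples with both comparisons above and is given beside them. In sgControl 10 members were higher and 5 lower on day 7 (40.5%, against 13% of all genes tested, 6.65% higher and 6.36% lower), and in sgRELA 10 were higher and 4 lower (37.8%, against 12.4%, 6.35% higher and 6.06% lower). INSIG1, ACAT2, FDPS, EBP, SCD, FASN, ACACA and ACLY were higher and STARD4, NPC2 and MYLIP lower in both guides, 11 of 37 members where 8.11% of all genes tested were called alike in both. FDFT1, SQLE and MSMO1, which fell by day 6 and rose by day 7, were not called between day 5 and day 7 in either guide. The median over members was 0.08 in each guide, against -0.01 over all genes. In sgControl, 6 of the 15 calls were lost in at least 1 fit that left out a replicate: FDPS, HMGCS1, INSIG2, MYLIP, SREBF1 and STARD4. In sgRELA, 5 of the 14 were: ACAT2, DHCR7, FADS2, MYLIP and NPC1. The call of FDPS in sgControl was lost without day 7 replicate 2 (adjusted p = 0.0669), that of ACAT2 in sgRELA without day 5 replicate 1 (0.0802).

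**Figure D2:**
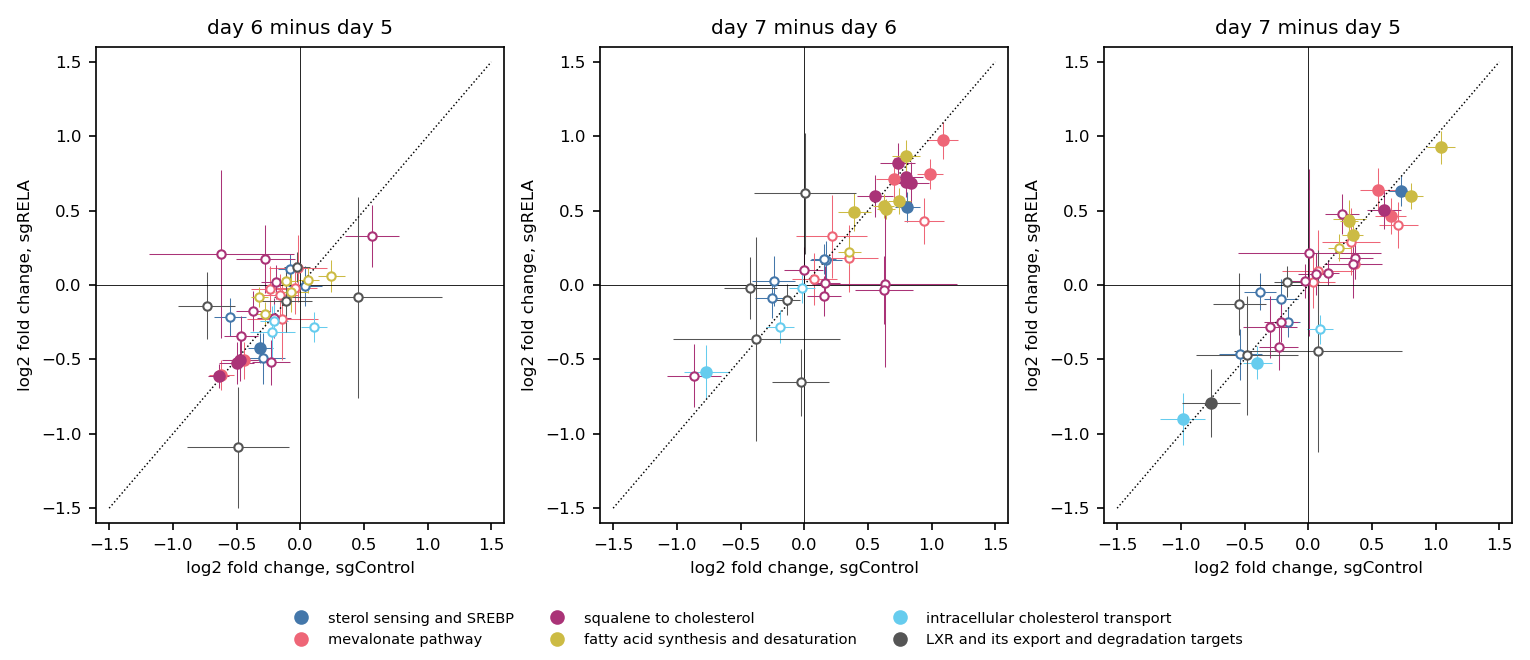
Each point is 1 of the 37 genes, with its log2 fold change between the named days in sgControl (horizontal) and in sgRELA (vertical), whiskers of 1 standard error and a dotted line of equality. Filled points passed an adjusted p of 0.05 in the same direction in both guides, and colour gives the role. The 14 filled points of day 7 minus day 6 on the upper right lie between 0.39 and 1.09 in sgControl.

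Of the sterol sensing genes, INSIG1 rose by day 7 and SREBF2 fell on day 6. INSIG1 (chr7:155297776-155310235, plus strand, GRCh38, GENCODE v29) encodes the protein that retains SCAP and is itself a target of SREBP. In sgControl, INSIG1 measured 115, 119 and 119 CPM on day 5, 111, 107 and 116 on day 6, and 197, 187 and 202 on day 7. In sgRELA, INSIG1 measured 104, 129.8 and 132 CPM on day 5, 149, 128 and 118 on day 6, and 174, 194 and 199.7 on day 7. Days 5 and 6 overlapped in both guides, and every day 7 sample lay above every earlier one. The log2 fold change from day 6 to day 7 was 0.81 ± 0.10 (SE) in sgControl (adjusted p = 2.78e-07) and 0.52 ± 0.10 in sgRELA (adjusted p = 0.000258). From day 5 to day 6 it was -0.08 ± 0.10 and 0.11 ± 0.10, not called in either. SREBF2 (chr22:41833079-41907308, plus strand) encodes SREBP-2, the factor that chiefly drives sterol genes. In sgControl, SREBF2 measured 180.4, 222 and 203 CPM on day 5, 193, 148 and 146 on day 6, and 186, 165 and 190.4 on day 7. In sgRELA, SREBF2 measured 211, 208 and 203 CPM on day 5, 164, 155 and 145 on day 6, and 179, 179.9 and 164 on day 7. The sgRELA samples of day 6 all lay below those of day 5, and the sgControl days overlapped. SREBF2 fell from day 5 to day 6 by 0.31 ± 0.10 in sgControl (adjusted p = 0.0448) and by 0.42 ± 0.10 in sgRELA (adjusted p = 0.0064). Both calls were lost with 1 replicate left out, with adjusted p = 0.199 without sgControl day 5 replicate 2 and 0.0507 without sgRELA day 6 replicate 3. From day 6 to day 7 SREBF2 differed by 0.15 ± 0.10 and 0.17 ± 0.10 and was not called. SREBF1, whose product drives fatty acid genes, was called lower on day 6 in sgControl (-0.55 ± 0.13) and not in sgRELA (-0.21 ± 0.13). The sgControl value of SREBF1 was -0.25 and not called with the first library of each RNA sample alone (adjusted p = 0.707), and -0.81 with the second. In sgControl day 6, the first library of replicate 1 gave 86.9 CPM of SREBF1 without TMM scaling, where the lowest library gave 34.2. That library held 7586205 counts, the fewest of all. INSIG2, the other retention protein, was lower on day 7 than day 5 in sgControl (-0.53 ± 0.17, adjusted p = 0.0346, and 0.124 without day 5 replicate 3) and measured -0.47 ± 0.17 in sgRELA. SCAP, the escort protein, was called in no comparison, with day values between -0.25 ± 0.13 and 0.04 ± 0.13.

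The mevalonate pathway builds isoprenoid units from acetyl-CoA, and the members called lay at its first and last steps. HMGCS1 (chr5:43289395-43313512, minus strand) encodes HMG-CoA synthase. In sgControl, HMGCS1 measured 106, 119 and 122 CPM on day 5, 73.8, 74.2 and 78.1 on day 6, and 152, 151 and 146 on day 7. In sgRELA, HMGCS1 measured 105, 120.3 and 115 CPM on day 5, 63.2, 78.4 and 82.0 on day 6, and 122, 133 and 120.3 on day 7. Day 6 lay below both other days without overlap in each guide, and day 7 lay above day 5 in sgControl but met it in sgRELA. HMGCS1 fell by 0.62 ± 0.10 in sgControl (adjusted p = 0.000106) and by 0.61 ± 0.10 in sgRELA (adjusted p = 0.000151) from day 5 to day 6. It then rose by 0.99 ± 0.10 (adjusted p = 1.23e-08) and 0.75 ± 0.10 (adjusted p = 2e-06) to day 7. ACAT2 (chr6:159760328-159779055, plus strand) encodes the thiolase that joins acetyl-CoA units before HMG-CoA synthase. In sgControl, ACAT2 measured 52.6, 45.8 and 55.2 CPM on day 5, 38.5, 36.4 and 38.4 on day 6, and 80.0, 76.8 and 83.9 on day 7. In sgRELA, ACAT2 measured 48.2, 53.3 and 63.4 CPM on day 5, 36.3, 44.1 and 35.6 on day 6, and 78.3, 78.3 and 71.2 on day 7. No day overlapped another in either guide. The rise from day 6 to day 7 was 1.09 ± 0.12 in sgControl and 0.97 ± 0.12 in sgRELA, with adjusted p = 8.06e-08 and 6.9e-07. The preceding fall of 0.44 ± 0.12 and 0.51 ± 0.12 was lost with 1 replicate left out, with adjusted p = 0.101 without sgControl day 5 replicate 3 and 0.0951 without sgRELA day 5 replicate 3. FDPS encodes farnesyl diphosphate synthase, the end of this branch. In sgControl, FDPS measured 25.0, 30.8 and 26.6 CPM on day 5, 23.1, 26.8 and 23.7 on day 6, and 38.8, 44.6 and 36.9 on day 7. In sgRELA, FDPS measured 27.4, 24.3 and 24.6 CPM on day 5, 24.5, 26.8 and 21.5 on day 6, and 38.5, 41.8 and 38.8 on day 7. Day 7 lay above both earlier days, which overlapped. FDPS rose by 0.71 ± 0.14 in sgControl (adjusted p = 0.000545) and by 0.71 ± 0.14 in sgRELA (adjusted p = 0.000625). IDI1, the isomerase, rose from day 6 to day 7 in sgControl (0.94 ± 0.15, adjusted p = 3.83e-05), and the sgRELA value of 0.43 ± 0.15 was not called (adjusted p = 0.0642). MVK, PMVK and MVD, the kinases and the decarboxylase between them, were called in no comparison, and their day 7 minus day 6 values were 0.04 to 0.35 with standard errors of 0.18 to 0.28.

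**Figure D3:**
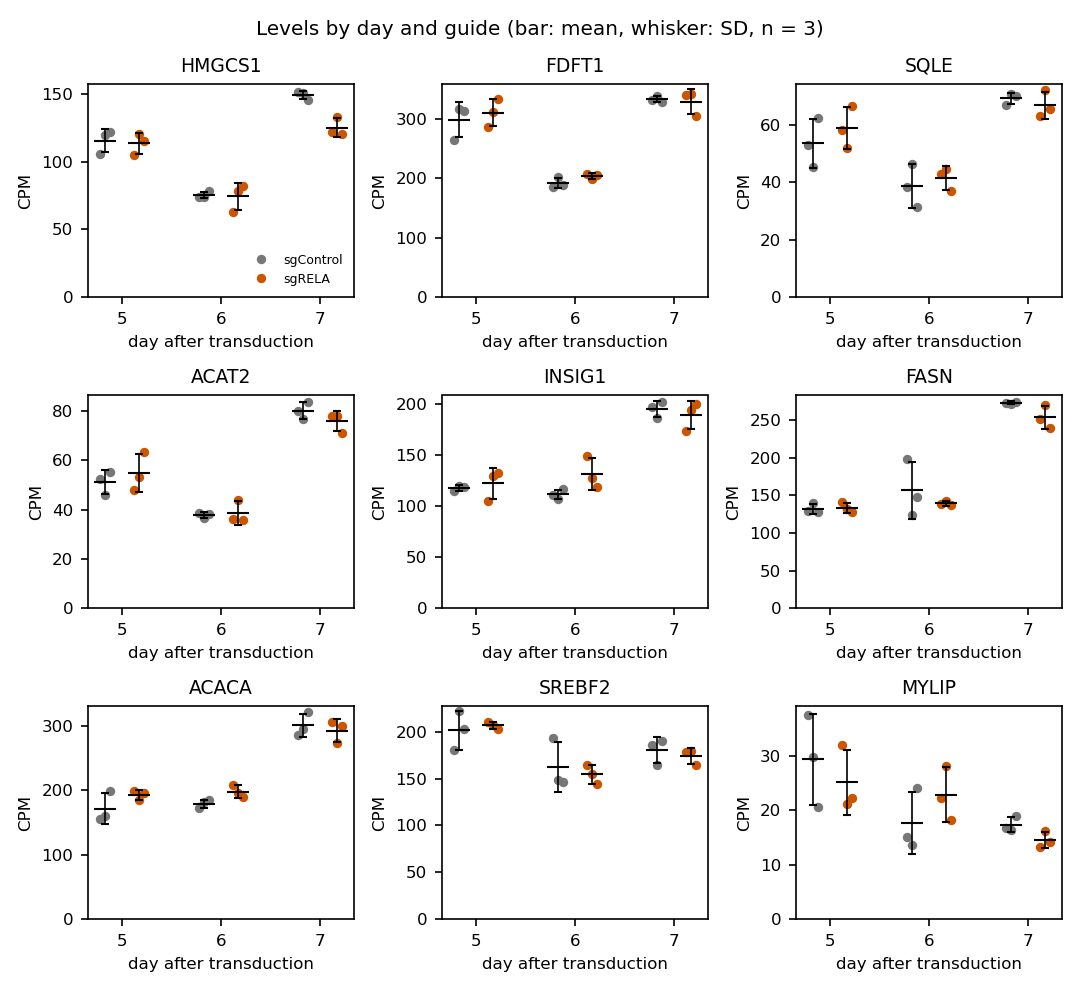
CPM of 9 members by day, with 1 point for each of 3 RNA samples, sgControl in grey and sgRELA in orange, bars for the mean and whiskers for the SD. HMGCS1, FDFT1, SQLE and ACAT2 are lowest on day 6, INSIG1, FASN and ACACA are similar on days 5 and 6 and higher on day 7, and MYLIP is lower on day 7 than on day 5.

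From squalene to cholesterol, the first enzymes fell on day 6 and rose by day 7. FDFT1 encodes squalene synthase, the first committed step to sterols. In sgControl, FDFT1 measured 265, 317 and 313 CPM on day 5, 185, 201 and 188 on day 6, and 332, 339 and 329 on day 7. In sgRELA, FDFT1 measured 287, 312 and 333 CPM on day 5, 206, 199 and 206 on day 6, and 339.5, 341 and 305 on day 7. All day 6 samples lay below all samples of days 5 and 7 in both guides. FDFT1 fell by 0.64 ± 0.08 in sgControl (adjusted p = 2.98e-06) and by 0.61 ± 0.08 in sgRELA (adjusted p = 6.31e-06) to day 6, then rose by 0.80 ± 0.08 (adjusted p = 1.01e-08) and 0.69 ± 0.08 (adjusted p = 1.81e-07). Day 7 minus day 5 was 0.16 ± 0.08 and 0.08 ± 0.08, not called. SQLE encodes squalene epoxidase, a rate-limiting enzyme of the later pathway. In sgControl, SQLE measured 53.0, 45.3 and 62.3 CPM on day 5, 38.4, 46.3 and 31.2 on day 6, and 67.0, 70.5 and 70.1 on day 7. In sgRELA, SQLE measured 58.1, 51.9 and 66.6 CPM on day 5, 42.9, 44.7 and 36.8 on day 6, and 62.9, 72.0 and 65.4 on day 7. Days 5 and 6 overlapped in sgControl only through replicate 2 of each. The rise to day 7 was 0.84 ± 0.14 in sgControl (adjusted p = 4.58e-05) and 0.69 ± 0.14 in sgRELA (adjusted p = 0.000731). The fall before it, 0.47 ± 0.14 and 0.51 ± 0.14, was lost with adjusted p = 0.199 without sgControl day 5 replicate 3 and 0.146 without sgRELA day 5 replicate 3. MSMO1, a methylsterol oxidase whose promoter stretch holds 3 CCAAT matches, had means of 48.9, 34.6 and 50.9 CPM on days 5, 6 and 7 in sgControl and 50.8, 35.4 and 53.5 CPM in sgRELA. Its rise from day 6 to day 7 was 0.56 ± 0.14 and 0.60 ± 0.14.

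Further along the same route, EBP encodes a sterol isomerase. In sgControl, EBP measured 38.2, 54.8 and 54.7 CPM on day 5, 47.9, 39.4 and 40.7 on day 6, and 66.6, 75.8 and 80.8 on day 7. In sgRELA, EBP measured 47.4, 53.1 and 47.2 CPM on day 5, 40.1, 46.2 and 40.6 on day 6, and 67.7, 70.2 and 72.1 on day 7. Every day 7 sample lay above every sample of the earlier days. EBP rose from day 6 to day 7 by 0.80 ± 0.13 in sgControl (adjusted p = 4.06e-05) and by 0.73 ± 0.13 in sgRELA (adjusted p = 0.000191). DHCR7 encodes a reductase that completes cholesterol. In sgControl, DHCR7 measured 44.6, 40.8 and 47.9 CPM on day 5, 34.1, 31.0 and 31.2 on day 6, and 55.1, 48.3 and 56.9 on day 7. In sgRELA, DHCR7 measured 33.3, 42.0 and 34.8 CPM on day 5, 28.4, 33.6 and 24.9 on day 6, and 54.0, 50.4 and 49.2 on day 7. Day 7 again lay above the other days without overlap, with a rise from day 6 of 0.73 ± 0.14 (adjusted p = 0.000183) and 0.82 ± 0.14 (adjusted p = 5.07e-05). TM7SF2, a sterol reductase, went the other way: day 7 minus day 6 was -0.86 ± 0.21 in sgControl (adjusted p = 0.00411, 0.104 without day 6 replicate 1, and 0.269 at -0.49 with the second libraries alone) and -0.61 ± 0.21 in sgRELA (adjusted p = 0.0557, not called). In sgControl day 6, the first library of replicate 1 gave 58.3 CPM of TM7SF2 without TMM scaling, where the lowest library gave 18.9. HSD17B7, a ketosteroid reductase with a near-identical pseudogene copy, was lower on day 6 than day 5 in sgRELA (-0.52 ± 0.15, adjusted p = 0.034, and 0.143 without day 6 replicate 3). LSS, CYP51A1, NSDHL and SC5D were called in no comparison. CYP51A1 was counted at only 2.18 to 3.37 CPM on average, and its standard error of 0.56 to 0.57 was close to the size of the changes seen in FDFT1. Single libraries of one group differed widely, from 4 to 105 counts of CYP51A1 in sgControl day 5 and from 1 to 64 in sgRELA day 5.

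The fatty acid genes were the role with the largest share of members called between day 6 and day 7, 6 of 6 in sgControl and 5 of 6 in sgRELA. FASN (chr17:82078333-82098332, minus strand) encodes fatty acid synthase. In sgControl, FASN measured 129.8, 140.0 and 128 CPM on day 5, 199, 124 and 148 on day 6, and 274, 271 and 275 on day 7. In sgRELA, FASN measured 141, 132 and 128 CPM on day 5, 138, 143 and 138 on day 6, and 252, 270.5 and 239.7 on day 7. Days 5 and 6 overlapped in both guides, with sgControl day 6 replicate 1 the highest of them, and all day 7 samples lay above. FASN rose from day 6 to day 7 by 0.80 ± 0.11 in sgControl (adjusted p = 1.68e-06) and by 0.86 ± 0.11 in sgRELA (adjusted p = 5.72e-07). With the first library of each RNA sample alone, the sgControl rise of FASN was 0.40 and not called (adjusted p = 0.283), and with the second alone it was 1.16. The first library of sgControl day 6 replicate 1 gave 350 CPM of FASN without TMM scaling, where the lowest library of that group gave 124. ACACA (chr17:37084988-37406818, minus strand) encodes acetyl-CoA carboxylase, which makes the malonyl-CoA that FASN uses. In sgControl, ACACA measured 155, 161 and 199 CPM on day 5, 172, 182 and 184 on day 6, and 286, 295 and 322 on day 7. In sgRELA, ACACA measured 199, 185 and 196 CPM on day 5, 209, 196 and 190.3 on day 6, and 306, 273 and 299.5 on day 7. As in FASN, days 5 and 6 overlapped and day 7 lay above both. ACACA rose by 0.75 ± 0.09 (adjusted p = 1.71e-07) and 0.56 ± 0.09 (adjusted p = 2.2e-05), and neither gene was called between days 5 and 6. ACLY encodes ATP citrate lyase, the source of acetyl-CoA for fatty acids and sterols alike. In sgControl, ACLY measured 345, 376 and 355 CPM on day 5, 289, 272 and 300.4 on day 6, and 463, 438 and 444 on day 7. In sgRELA, ACLY measured 344, 346 and 342 CPM on day 5, 331, 303 and 342 on day 6, and 463, 459 and 468 on day 7. Day 7 was highest and day 6 lowest in both guides, although in sgRELA the top of day 6 and the bottom of day 5 met at 342 CPM. ACLY rose from day 6 to day 7 by 0.64 ± 0.07 (adjusted p = 3.3e-08) and 0.51 ± 0.07 (adjusted p = 2.21e-06).

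Of the desaturases, SCD and FADS2 rose in both guides. SCD (chr10:100347124-100364834, plus strand) encodes stearoyl-CoA desaturase. In sgControl, SCD measured 384, 477 and 459 CPM on day 5, 372, 376 and 342 on day 6, and 577, 586 and 517 on day 7. In sgRELA, SCD measured 497, 491 and 473 CPM on day 5, 439.9, 451 and 386 on day 6, and 654, 619.9 and 575 on day 7. Day 6 was lowest and day 7 highest without overlap in both guides. SCD rose from day 6 to day 7 by 0.63 ± 0.08 (adjusted p = 9.52e-07) and 0.53 ± 0.08 (adjusted p = 1.52e-05). FADS1 and FADS2, desaturases of polyunsaturated fatty acids, share 490 exonic bases on opposite strands in GENCODE v29. FADS2 rose by 0.39 ± 0.13 and 0.49 ± 0.13, with 0.01 in sgControl from the first library of each RNA sample alone. Here too the first library of sgControl day 6 replicate 1 was the highest of its group, at 484 CPM without TMM scaling, where the lowest was 160. FADS1 rose in sgControl (0.35 ± 0.09, adjusted p = 0.00671) and measured 0.23 ± 0.09 in sgRELA, not called.

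Of the genes that move cholesterol inside the cell, NPC2 and STARD4 were lower on day 7 than on day 5. NPC2 (chr14:74476192-74494177, minus strand) encodes the soluble protein that hands cholesterol to NPC1 for exit from lysosomes. NPC2 averaged 25.5 ± 3.26 CPM (SD, n = 3) on day 5, 21.9 ± 3.69 on day 6 and 12.9 ± 0.764 on day 7 in sgControl. In sgRELA it averaged 26.1 ± 2.94, 20.9 ± 3.18 and 13.98 ± 0.628 CPM. From day 5 to day 7 NPC2 fell by 0.99 ± 0.18 in sgControl (adjusted p = 0.000218) and by 0.90 ± 0.18 in sgRELA (adjusted p = 0.000632), and both calls held whichever replicate was left out, but not with the first libraries alone (adjusted p = 0.162 and 0.174). STARD4, a soluble carrier of sterols, fell from day 5 to day 7 by 0.40 ± 0.11 in sgControl (adjusted p = 0.0143, and 0.102 without day 7 replicate 1) and by 0.52 ± 0.11 in sgRELA (adjusted p = 0.00139, and 0.14 at -0.32 with the second libraries alone). NPC1, the membrane partner of NPC2, differed by 0.09 ± 0.10 in sgControl and -0.30 ± 0.10 in sgRELA between these days, where the sgRELA call (adjusted p = 0.0457) was lost without day 5 replicate 2 (0.228).

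Of the LXR group, MYLIP was the member that moved with day. In sgControl, MYLIP measured 37.6, 29.9 and 20.7 CPM on day 5, 15.2, 13.7 and 24.2 on day 6, and 16.7, 16.3 and 18.9 on day 7. In sgRELA, MYLIP measured 32.1, 21.2 and 22.3 CPM on day 5, 22.3, 28.2 and 18.2 on day 6, and 13.2, 16.2 and 14.2 on day 7. All day 7 samples lay below all day 5 samples of the same guide. MYLIP fell from day 5 to day 7 by 0.76 ± 0.23 in sgControl (adjusted p = 0.0214) and by 0.79 ± 0.23 in sgRELA (adjusted p = 0.0172). Both calls rested on the replicate 1 samples of day 5, with adjusted p = 0.175 and 0.142 without them. The LXR receptors NR1H2 and NR1H3 and the exporters ABCA1 and ABCG1 were called in no comparison of days. ABCG1, which passes cholesterol to lipoproteins, lay at 103 to 119 CPM on average in the 6 groups, with day values between -0.16 ± 0.10 and 0.12 ± 0.10.

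Split by day 6 to day 7 calls, the promoter windows read as follows. Of the 14 genes that rose in both guides, 10 had a window, and all 10 held CCAAT on one strand or the other. Of the other members, 13 of 22 (59.1%) held it, and 39.7% of all genes did. Some genes had several windows and counted if any of them matched. By window, the shares were 12 of 16 (75%), 15 of 30 (50%) and 34.6%. The FADS2 match lay past the transcription start. GGGCGG was in 10 of the 10 and in 21 of the 22. The SRE core, searched in 1 form only, was in 0 of the 10 and 1 of the 22. The members were chosen as a pathway with many known targets of SREBP and NF-Y, so these shares describe the windows and test nothing.

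The guide comparison asks whether the pathway differed between sgRELA and sgControl cells. On single days none of the 37 members was called in edgeR's test or in DESeq2, where edgeR called 0.138% of all genes tested on day 5, 0.214% on day 6 and 0.0907% on day 7. At an unadjusted p under 0.05 there were 2 members on day 5, 4 on day 6 and 1 on day 7. Of all 27553 genes tested, 1641, 1672 and 1290 lay under that value on these days. The interaction of guide and day was called for 0 members in both tools (0.00363% of all genes tested in edgeR). Its unadjusted p was under 0.05 for 1 member, NPC1, and for 1291 of the 27553 genes tested. With counts added over the 3 days, giving 3 sums of 66933367 to 72971290 counts a guide, 35 of 37 members differed by less than 0.2 on the log2 scale. The median standard error there was 0.0716. The exceptions were MVK, at 0.27 ± 0.14 and not called, and ABCA1. The median log2 fold change was 0.01 over the members and -0.00 over all genes. CD79A, the B-cell marker named above, moved with the guide in these samples, as did the summed T-lymphocyte markers on days 6 and 7. Their part in these values was not tested.

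**Figure D4:**
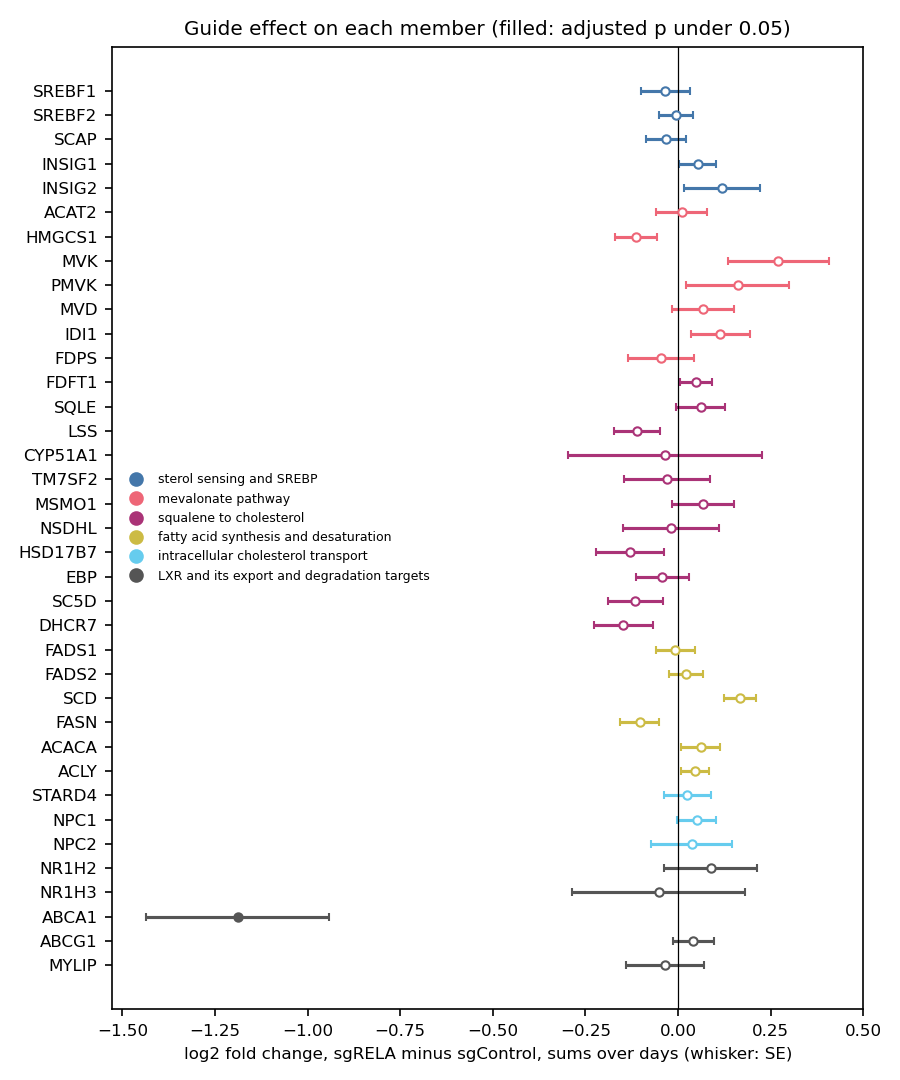
Log2 fold change of sgRELA minus sgControl for each of the 37 genes from counts added over days, with whiskers of 1 standard error and the colour of the role. The filled point passed an adjusted p of 0.05. ABCA1, at -1.19, stands apart from 35 genes that lie within 0.2 of 0.

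ABCA1 (chr9:104781002-104928237, minus strand), the exporter that loads cholesterol onto apolipoproteins, was the 1 member called between the guides (1 of 37, against 0.363% of 28888 genes tested, 0.121% lower). Added over days, ABCA1 measured 6.51, 6.44 and 6.90 CPM in the sgControl sums and 1.79, 2.57 and 4.34 CPM in the sgRELA sums. The sums of the guides did not overlap. Each sum joined the days by replicate number, which the labels do not tie to a shared culture. The spread of the sums, and the standard error from it, therefore need not be the spread between cultures. ABCA1 was lower in sgRELA by -1.19 ± 0.25 on the log2 scale (adjusted p = 0.0324). In single RNA samples of sgControl, ABCA1 measured 8.02, 5.58 and 3.75 CPM on day 5, 4.27, 12.5 and 7.00 on day 6, and 7.00, 1.54 and 9.75 on day 7. In those of sgRELA, ABCA1 measured 4.62, 2.56 and 2.79 CPM on day 5, 0.483, 3.18 and 5.80 on day 6, and 0.236, 2.03 and 5.08 on day 7. The guides overlapped on every day, and the single-day differences of -0.80 ± 0.67, -1.34 ± 0.68 and -1.32 ± 0.68 were not called. The pairs of libraries made from one RNA differed widely: sgControl day 5 replicate 2 gave 0 and 122 counts, sgControl day 7 replicate 2 gave 34 and 2, and sgRELA day 7 replicate 3 gave 9 and 112. ABCA1 stood at 0 counts in 4 of 36 libraries, 2 of each guide, which allows up to 0.235 to 0.395 CPM there (3 counts, counting error only). The 2 sgControl libraries at 0 were those with the fewest detected genes of all, 25398 and 26526. The call was lost in 5 of the 6 fits that left out 1 sum (largest adjusted p = 0.208, at -0.94, without sgRELA replicate 1) and remained without sgRELA replicate 3. It was also lost with the first library of each RNA alone (-1.29, adjusted p = 0.273), with the second alone (-1.10, adjusted p = 0.465) and in a fit of the 18 samples with day as a term (-1.15, adjusted p = 0.392).

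**Figure D5:**
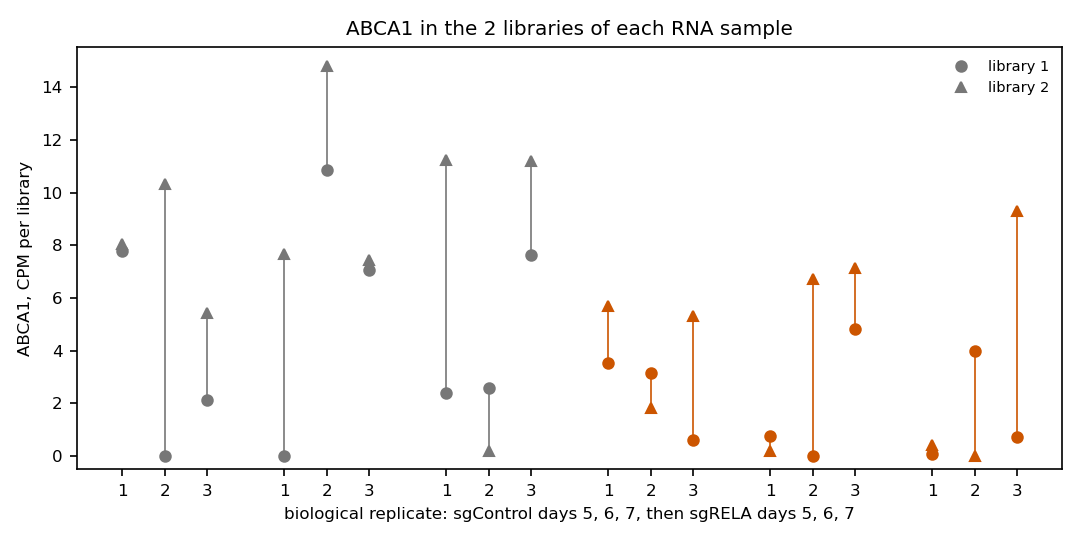
ABCA1 in CPM for the 2 libraries of each of the 18 RNA samples, joined by a line, with sgControl in grey and sgRELA in orange. Circles are the first library and triangles the second. Values within a pair range from nearly equal to 0 against 10.3 CPM in sgControl day 5 replicate 2.

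The other 2 members with the smallest p for the guide over days were SCD and HMGCS1. SCD measured 449, 479.6 and 441 CPM in the sgControl sums and 533, 522 and 483 CPM in the sgRELA sums, which did not overlap. The difference of 0.17 ± 0.04 was not called (adjusted p = 0.135). HMGCS1 measured 112, 115 and 116 CPM and 97.8, 112 and 108 CPM, nearly touching at 112 CPM, and its difference of -0.11 ± 0.06 was not called (adjusted p = 0.761).

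Other genes of the pathway were read from a list of 43 that are not members, of which 40 passed the filter in the fit of 18 samples. ME1, CH25H and CYP27A1 did not pass. From day 6 to day 7, 6 rose and 3 fell in both guides, 22.5% of the list against 8.73% of all genes tested. From day 5 to day 6, 1 fell in both, 2.5% against 4.3%. From day 5 to day 7, 3 rose and 6 fell in both, 22.5% against 8.11%. None was called between the guides on a day or over days in edgeR's test. There, 4, 3 and 2 had an unadjusted p under 0.05 on days 5, 6 and 7 and 3 over days. Of all genes tested, 1641, 1672 and 1290 of 27553 did so on those days, and 1947 of 28888 over days. Calls of single genes of this list were not followed through the alternative fits. Lipoprotein receptors gave the largest changes. VLDLR fell from day 5 to day 7 by 1.54 ± 0.13 in sgControl and by 2.09 ± 0.14 in sgRELA. LRP1 fell from day 6 to day 7 by 1.31 ± 0.13 and by 1.16 ± 0.13. LRP8, a receptor of the same family, was higher on day 7 than on day 5 by 1.11 ± 0.12 and 0.79 ± 0.12. TMEM97, a sterol-binding protein of the endoplasmic reticulum, rose from day 6 to day 7 by 0.85 ± 0.11 and 1.22 ± 0.11. It was also the gene of the list that fell from day 5 to day 6 in both guides, by 0.43 ± 0.11 and by 0.68 ± 0.11. UBE2G2, a ubiquitin-conjugating enzyme of endoplasmic reticulum degradation, rose from day 6 to day 7 by 0.92 ± 0.09 and 0.88 ± 0.09. LBR, a sterol reductase of the nuclear envelope, rose from day 6 to day 7 by 0.59 ± 0.08 and 0.40 ± 0.08. STARD3, a sterol carrier of late endosomes, fell from day 5 to day 7 by 0.67 ± 0.13 and by 0.52 ± 0.13.

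Some members share exonic sequence with other genes in GENCODE v29, and the strand setting of the counting is not given in the sources used here. CYP51A1 shares 83.2% of its exonic bases, most of it with AC000120.2 on the same strand, and ACAT2 shares 52.3%, with SOD2, SOD2-OT1 and TCP1 on the opposite strand. FDPS shares 18.6% with RUSC1-AS1, HMGCS1 15% with AC114947.2 and IDI1 14.8% with IDI2-AS1, all antisense to them. Counts of these genes are uncertain to that extent. FDPS also has processed pseudogenes, between which reads could be split.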

How the data were processed

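The authors deposited 1 table of raw counts per gene for 36 RamDA-seq libraries, 2 from each of 18 RNA samples, with no normalization per the labels. RamDA-seq primes total RNA along the transcript. The submitters' processing notes name cutadapt 1.18, STAR 2.7.9a and GRCh38; the counting tool, annotation, strand setting and treatment of reads with several matches are not given in the sources used here. No molecular identifiers are mentioned, so limits on counts of 0 cover counting error only.

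Libraries held 7586205 to 16124473 counts (median 12052035). Counts of the 2 libraries from each RNA sample were summed, and the 18 sums were fitted in edgeR 4.0.16 (R 4.3.3) with a mean for each of 6 groups of guide and day, TMM scaling, and filterByExpr (minimum count 10), and compared by quasi-likelihood F tests with p-values adjusted by Benjamini-Hochberg over all genes tested (threshold 0.05). A second fit added counts over the 3 days for each guide and replicate number, 3 sums against 3. Standard errors were derived from the F statistic. The method was tested on simulated data.

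The members, roles and lists were chosen with earlier results of these data known. Values of every RNA sample are given for the 12 members with the smallest p for any difference among the 6 groups, for SREBF2, INSIG1, ABCA1 and MYLIP, and for the 3 members with the smallest p for the guide over days. Of the wider list, up to 8 genes called alike in both guides are named. Alternatives were DESeq2 1.42.0, its size factors in edgeR, no filter, each library replicate alone, leaving out 2 libraries with few detected genes, a replicate block, the compared samples alone and leaving out each replicate. Identifiers were matched through a table of gene names. Loci are those of GENCODE v29 on GRCh38 and promoters those of RefSeq.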

Additional observations from a re-analysis of the deposited data

How the results depend on the processing

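Of 81 calls of members, none reversed under any alternative. All 81 held under DESeq2 and under its size factors in edgeR, 79 with no filter on low counts, 78 without the 2 libraries with few detected genes, 71 of 80 in fits of the compared samples alone, and 52 whichever replicate was left out. The 2 libraries with few detected genes were the first ones of sgControl day 5 replicate 2 and sgControl day 6 replicate 1. The first library of each RNA sample alone kept 28 and the second 60, and the cause of that gap was not tested. The number of members called in sgControl from day 5 to day 6 (11) was 2 and 6 with the first and second libraries alone, 3 in the fit of the 6 samples compared, and 6 to 10 with a replicate left out. In sgRELA (7) it was 11 in DESeq2, 1 with the first libraries and 3 to 7 with a replicate left out. With the first libraries alone, the counts from day 6 to day 7 were 11 in sgControl (18) and 7 in sgRELA (15), and from day 5 to day 7 they were 4 (15) and 3 (14). Leaving out a replicate gave 16 to 19 and 13 to 16 from day 6 to day 7, and 10 to 14 and 10 to 13 from day 5 to day 7. For the guide over days (1), the count was 0 with either library alone and with day terms, and 0 to 1 with a sum left out. Replicate numbers did not pair the samples: same-numbered samples of different groups had correlations of -0.0655 to 0.0392 in their deviations. With the replicate block, 79 of 81 calls held, and 2 members were called for the guide over days, ABCA1 and SCD.

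Over all genes, day 5 to day 6 gave 2445 calls in sgControl, but 430 with the first libraries, 1374 with the second and 1251 in the fit of the samples compared. In sgRELA 1904 became 2912 in DESeq2, 196 and 1183 with either library set, and 1242 and 1243 without day 6 replicate 2 or day 5 replicate 3. Day 6 to day 7 gave 4012 in sgControl, 1879 and 2628 with either set, and 3368 in sgRELA, 961 with the first. Day 5 to day 7 gave 3585 in sgControl, 820 with the first set, and 3420 in sgRELA, 669 and 2222. For the guide, the 38, 59 and 25 calls of days 5, 6 and 7 were 72, 127 and 55 in DESeq2, and the 105 over days were 236 in DESeq2, 221 with no filter, and 42 and 49 with either library set. The interaction's 1 call was 16 in DESeq2 and 24 with no filter, none of them a member.

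ABCA1, NR1H3 and CYP51A1 lay under 15 CPM in every RNA sample, with standard errors for single-day guide differences above 0.39. Changes smaller than that lie within 1 standard error for each of these genes, and larger ones can also go uncalled. For ABCA1 the standard error reached 0.68, and its differences of -1.34 on day 6 and -1.32 on day 7 were not called. The part of depth in these errors was not tested, and counts of ABCA1 and CYP51A1 varied widely between libraries.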
